A study of Mus musculus with 90 samples.

Results

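The genes described here are 7 mouse genes of monoamine synthesis, transport and breakdown, Th, Ddc, Hdc, Slc18a2, Slc6a3, Maoa and Maob. They were taken by symbol from the 37991 genes of a table of read counts, where each matched 1 Ensembl gene ID. Dopamine and noradrenaline are made from tyrosine, serotonin from tryptophan and histamine from histidine, and neurons load each of them into vesicles with the same transporter before release. The enzymes and transporters are abundant in few groups of neurons, and most of those neurons have their cell bodies in the midbrain, hindbrain and hypothalamus, with long axons into the cortex and amygdala. Messenger RNA of a dissected region mainly reflects the cell bodies it holds, so it does not report on the amines that incoming axons release.

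The study asked how the brain of a territorial male mouse responds to a rival, by RNA sequencing of 3 dissected regions after a short encounter. Every animal sampled was a resident C57BL/6J male that had shared its cage with a C57BL/6J female until she was taken out, 3 h before the test. Residents of the intruder groups faced an unfamiliar BALB/cJ male held in a wire mesh cage for 5 min, and control residents faced that cage with a paper cup inside it. The residents then waited in the dark for 30, 60 or 120 min, and frontal cortex, hypothalamus and amygdala were taken, which gave 90 libraries in 18 groups from 32 labelled animals. Each group had 5 libraries, apart from the 30 min control hypothalamus with 3 and the 120 min frontal cortex with 6 in each condition. No animal was sampled without any exposure, so control means exposure to the cage with the paper cup, and contact between residents and intruders was prevented by the mesh. The labels name 1 animal for each library, while the design text speaks of pooled RNA, so whether every library stands for a separate animal is taken from the labels alone.

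Libraries held 38.6 to 58.86 M reads assigned to genes (median 49.005 M), between 38.6 and 58.86 M in the frontal cortex, 44.26 and 52.39 M in the amygdala, and 40.36 and 54.47 M in the hypothalamus. Levels are given as CPM, a gene's reads per M gene reads of its library, with TMM factors over all 90 libraries that correct for differences in makeup between libraries. Summed marker genes were highest in the region of their label, in each of 3 lists: the summed CPM of 10 hypothalamic genes, such as Hcrt and Pmch, was 809 to 2050 in the hypothalamus against 19.4 to 94.2 in the amygdala and 1.59 to 38.4 in the frontal cortex. Cortical genes summed to 1540 to 2250 in the frontal cortex against 363 to 1380 in the amygdala. The 6 amygdala genes summed to 229 to 549 CPM in the amygdala, 86.6 to 168 in the frontal cortex and 108 to 232 in the hypothalamus, mostly through Lypd1, while Rspo2 was higher in the frontal cortex (median 15.1 against 6.08) and Tac2 in the hypothalamus (21.2 against 10.8). Libraries of 1 region differed in genes of neighbouring tissue: the summed striatal genes ran from 306 to 2810 in the amygdala and 6 summed olfactory bulb genes from 22.6 to 129 in the frontal cortex. That sum was higher in the other regions, at 59.4 to 124 in the amygdala and 188 to 323 in the hypothalamus, through Calb2; without Calb2 it was 14.4 to 71.2 in the frontal cortex, 13.6 to 26 in the amygdala and 9.57 to 15.7 in the hypothalamus. In these bulk samples fewer cells of a type and less RNA per cell cannot be told apart.

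Some libraries stood apart. Intruder replicate 1 of the 120 min frontal cortex had 15.4 CPM of the hypothalamic peptide gene Oxt, against at most 0.688 in the other frontal cortex libraries. Intruder replicate 6 of the 120 min hypothalamus had 9.95 CPM of En1, a gene of the midbrain and hindbrain, against at most 0.319 in the other hypothalamus libraries. Control replicate 6 of the 60 min hypothalamus held 15.6 CPM of the pituitary hormone gene Gh. Headers of the deposited table also carry 1 tag for every 30 min library and another for every 60 and 120 min library, whose meaning is not stated, so time and tag cannot be told apart for the 30 min groups.

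The promoters of Th, Slc18a2 and Hdc are shown because the relations between libraries described further on turn on these members. Sequences are from RefSeq on GRCm38.p6, 250 bases before the transcription start and 50 after it, and 6 of the 7 members had an entry. Capitals mark matches on either strand to TGACGTCA, the cAMP response element, and to TGANTCA, the AP-1 element, where N is any base. The strand shown is that of the gene, which is minus for Th at chr7:142899946-142900245, plus for Slc18a2 at chr19:59260628-59260927 and minus for Hdc at chr2:126618629-126618928.
Th: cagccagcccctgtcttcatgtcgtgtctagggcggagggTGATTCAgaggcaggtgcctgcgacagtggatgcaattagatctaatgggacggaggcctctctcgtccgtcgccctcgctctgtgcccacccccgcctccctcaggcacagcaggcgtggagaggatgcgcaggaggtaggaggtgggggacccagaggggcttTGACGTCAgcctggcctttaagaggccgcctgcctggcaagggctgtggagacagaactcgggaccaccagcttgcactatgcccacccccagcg
Slc18a2: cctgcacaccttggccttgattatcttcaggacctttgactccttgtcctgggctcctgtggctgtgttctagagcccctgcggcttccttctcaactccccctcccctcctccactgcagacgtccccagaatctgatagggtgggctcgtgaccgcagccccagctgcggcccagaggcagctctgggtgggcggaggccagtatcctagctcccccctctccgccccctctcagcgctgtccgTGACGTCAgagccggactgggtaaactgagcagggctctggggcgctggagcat
Hdc: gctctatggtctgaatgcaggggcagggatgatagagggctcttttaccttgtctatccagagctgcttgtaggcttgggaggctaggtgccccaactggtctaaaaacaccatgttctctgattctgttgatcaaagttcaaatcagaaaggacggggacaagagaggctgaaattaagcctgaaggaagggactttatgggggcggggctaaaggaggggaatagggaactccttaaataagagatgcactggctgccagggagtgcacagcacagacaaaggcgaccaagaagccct
TGACGTCA lay 45 bases before the start of Th and 4 bases before that of Slc18a2, counted from its first base. It was present in 588 of 32851 mouse promoters of this length in the table (1.79%). TGANTCA had a match in Th, TGATTCA beginning 210 bases before the start, and in 1 of the Ddc promoters, TGAATCA beginning 129 bases before it, against 7.81% of all promoters. Neither set of letters occurred in the Hdc, Slc6a3 or Maoa windows. A match in the letters does not show that a factor binds there.

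The hypothalamus had the highest level of each of the 7 members. Th encodes tyrosine hydroxylase, the rate-limiting enzyme of dopamine and noradrenaline synthesis. Over all libraries it stood at 32.1 ± 4.35 CPM (SD, n = 28) in the hypothalamus, 5.01 ± 2.0 CPM (n = 30) in the amygdala and 5.07 ± 3.95 CPM (n = 32) in the frontal cortex. Ddc encodes the decarboxylase that finishes both dopamine and serotonin, and it stood at 48.1 ± 7.55 CPM in the hypothalamus, 10.9 ± 1.79 in the amygdala and 5.05 ± 1.08 in the frontal cortex. Hdc encodes histidine decarboxylase, the enzyme that makes histamine, and its means were 36.2 ± 23.0, 1.23 ± 0.277 and 0.686 ± 0.263 CPM in the same order. Its hypothalamic SD was large beside its mean, and every hypothalamus library (lowest 4.16 CPM) still lay above every amygdala library (highest 2.01 CPM).

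Slc18a2 encodes VMAT2, the vesicular transporter shared by all monoamine neurons, and it had the largest fold difference between hypothalamus and frontal cortex. It averaged 37.3 ± 15.3 CPM in the hypothalamus (SD, n = 28), 1.97 ± 0.953 in the amygdala (n = 30) and 0.421 ± 0.5 in the frontal cortex (n = 32). Slc6a3 encodes DAT, the dopamine transporter of the plasma membrane that takes dopamine back into the neuron. Its means were 4.12 ± 1.99, 0.567 ± 0.111 and 0.24 ± 0.213 CPM in the hypothalamus, amygdala and frontal cortex. Control replicate 2 of the 60 min frontal cortex had 0 Slc6a3 reads, where 3 reads would have made 0.0689 CPM.

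The breakdown enzymes followed another pattern. Maoa and Maob encode the monoamine oxidases of the outer mitochondrial membrane. They were well detected in every region and differed little between regions beside the other members. Maoa averaged 64.9 ± 3.01 CPM in the hypothalamus, 42.2 ± 2.33 in the amygdala and 32.1 ± 2.34 in the frontal cortex, with no overlap between hypothalamus (lowest 59.6) and amygdala (highest 46.4). Maob averaged 41.1 ± 6.92, 23.6 ± 2.02 and 27.6 ± 3.05 CPM, so that its frontal cortex level lay above its amygdala level. Maob ranged from 28.8 to 57.2 CPM in the hypothalamus, and that range overlapped the frontal cortex range of 23.3 to 37.1.

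**Figure D1:**
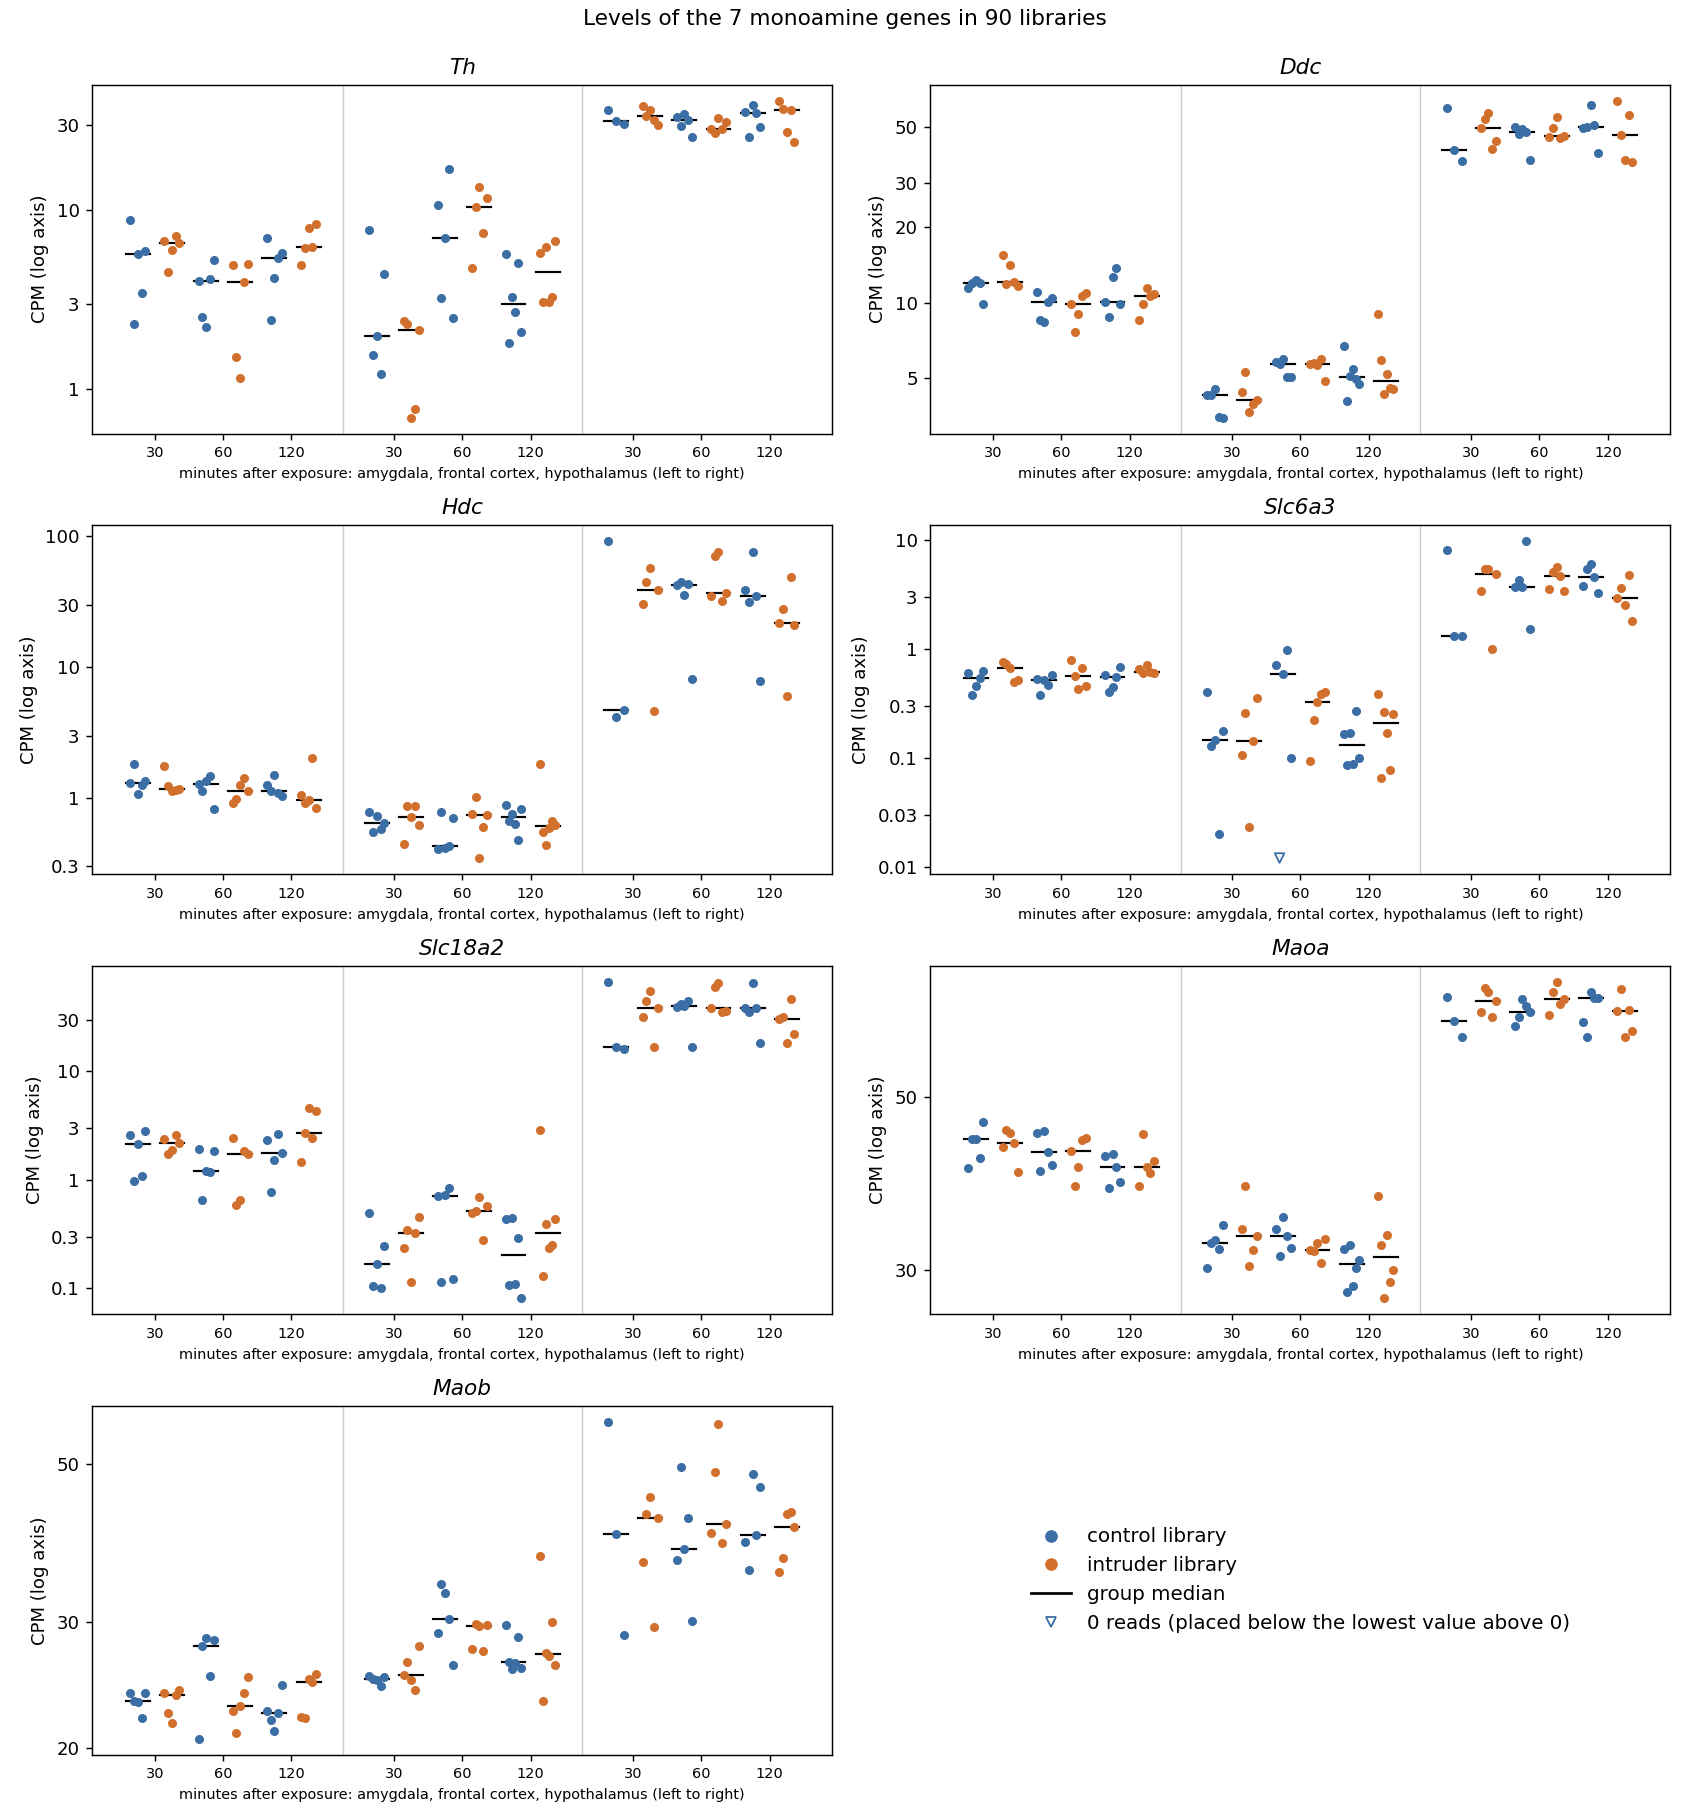
Levels of the 7 members in CPM (log axis) by region, time in minutes and condition. Each point is 1 library, each bar a group median and the open triangle the library with 0 reads; all 28 hypothalamus libraries lie above all amygdala libraries for each of the 7 members, and Maoa and Maob span the narrowest range.

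To compare genes with each other, the CPM of control libraries were divided by the exon length in kb. On this per-kb scale the order of levels in the hypothalamus was Maoa (15.4 ± 0.702, SD, n = 13), Maob (14.6 ± 2.84), Th (13.6 ± 1.68), Ddc (10.7 ± 1.73), Slc18a2 (7.03 ± 3.23), Hdc (5.57 ± 4.15) and Slc6a3 (1.27 ± 0.733). From Maoa to Th, and for Slc18a2 and Hdc, neighbours in that order differed by less than the larger of their SDs; Maoa and Maob differed by more than the SD of Maoa. In the amygdala the oxidases led, with Maoa at 10.1 and Maob at 8.58 CPM per kb, and Ddc at 2.41 and Th at 1.95 came next. Slc18a2, Hdc and Slc6a3 stood at 0.325, 0.197 and 0.15 CPM per kb there. In the frontal cortex Maob led at 9.85 ± 1.06 (n = 16) ahead of Maoa at 7.64 ± 0.461, and Slc6a3 and Slc18a2 were last at 0.0751 and 0.0611 CPM per kb.

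Differences between regions were tested in the control animals with the animal as a block, by edgeR's quasi-likelihood test with Benjamini-Hochberg adjustment over all 18056 genes tested and a threshold of 0.05. Control libraries of different regions shared no sequencing index, so that region and index cannot be told apart. Between hypothalamus and frontal cortex all 7 members were higher in the hypothalamus, where 82.1% of all genes tested differed, 41.4% being higher and 40.7% lower. Slc18a2 differed by 6.87 on the log2 scale (SE 0.311), which is 117-fold, with an edgeR adjusted p of 2.78e-17. Hdc was 38.9-fold higher (log2 5.28, SE 0.334, edgeR adjusted p = 4.54e-14) and Slc6a3 18.7-fold (log2 4.23, SE 0.323, edgeR adjusted p = 2.53e-12). Without control animal 2 of 30 min, whose hypothalamus had the highest Hdc, the log2 difference of Hdc was 4.65 (edgeR adjusted p = 5.19e-15). Ddc was 9.61-fold and Th 8.58-fold higher, against 1.97-fold for Maoa and 1.47-fold for Maob. With so many genes differing between the tissues, that all 7 passed the test says less than the size of their differences.

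Between hypothalamus and amygdala all 7 were again higher in the hypothalamus, where 72.6% of all genes differed, 36.2% being higher and 36.5% lower. Hdc was 20.5-fold higher (log2 4.35, edgeR adjusted p = 1.44e-12) and Slc18a2 19.6-fold (log2 4.30, edgeR adjusted p = 5.23e-14). Th was 7.73-fold, Slc6a3 7.25-fold, Ddc 4.41-fold, Maob 1.69-fold and Maoa 1.51-fold higher. The order within single animals was the same throughout: in 13 of 13 control animals with all 3 regions, the hypothalamus was the highest of the regions for each member.

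Between amygdala and frontal cortex, where 68.3% of all genes differed, 34.5% being higher and 33.8% lower, 5 members were higher in the amygdala, 1 was lower and Th did not pass. Slc18a2 was 5.93-fold higher (log2 2.57, edgeR adjusted p = 2.94e-07), Slc6a3 2.58-fold, Ddc 2.18-fold, Hdc 1.9-fold and Maoa 1.31-fold. Maob was lower by 0.21 on the log2 scale, a 1.15-fold difference (log2 -0.21, edgeR adjusted p = 0.00506), and only 1 of 13 control animals had more Maob in the amygdala. The difference in Th was 0.15 on the log2 scale (SE 0.198, edgeR adjusted p = 0.504), and the amygdala had more Th in 9 of 13 animals. The Hdc call was lost without control animal 5 of 60 min, where the log2 difference was 0.87 (edgeR adjusted p = 0.0513).

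**Figure D2:**
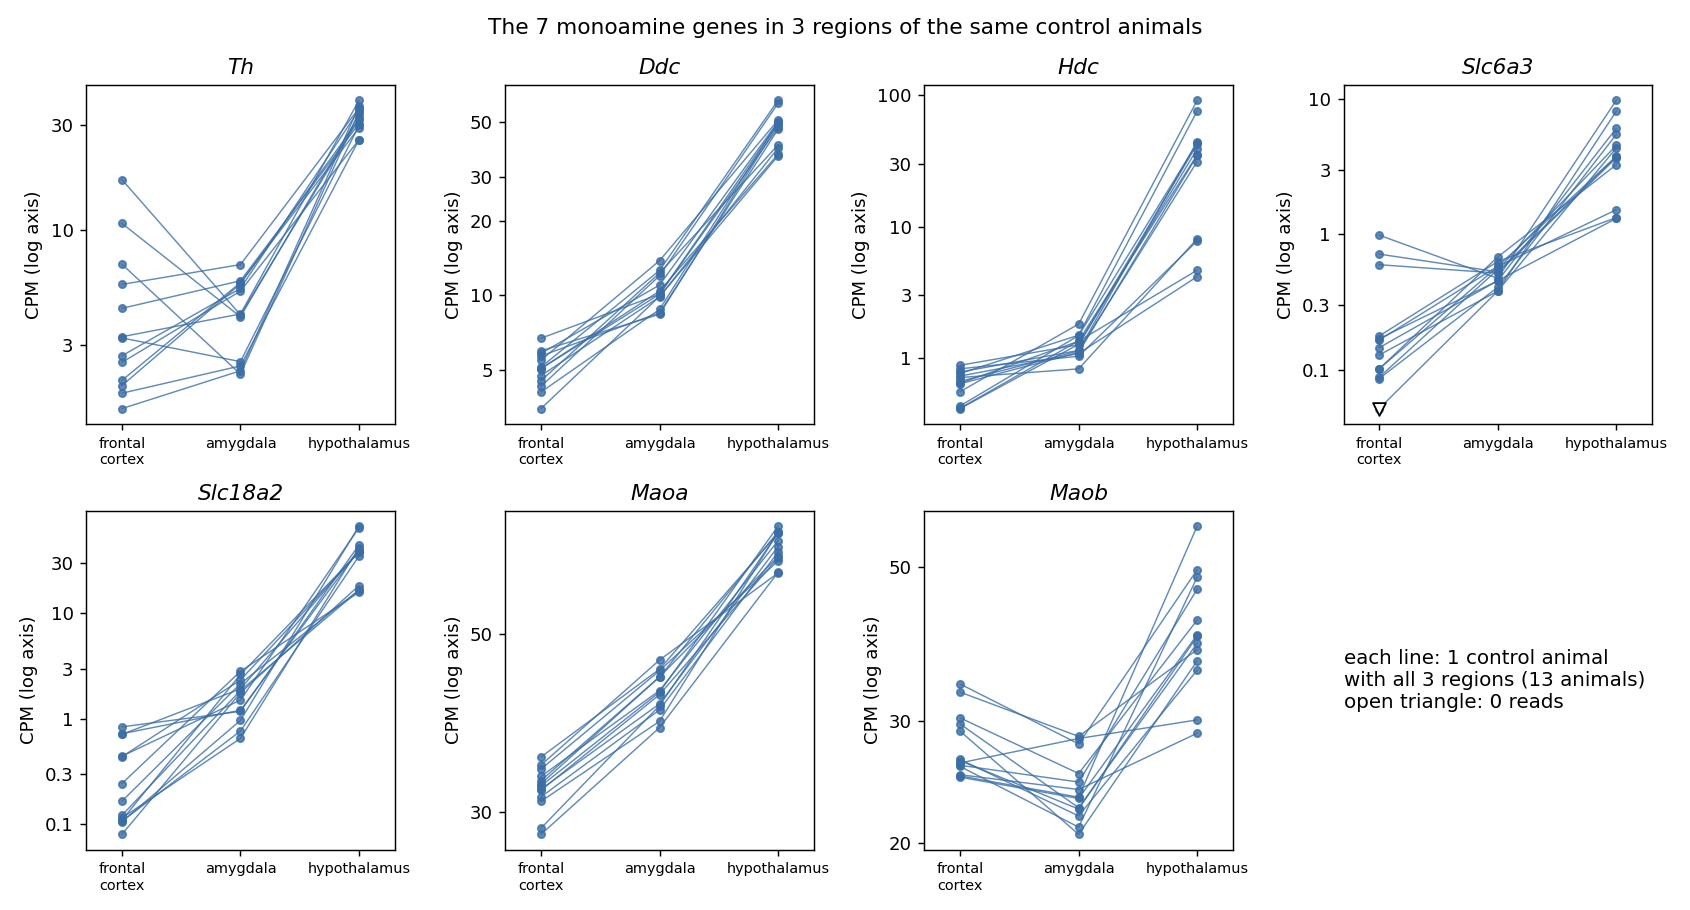
Levels of the 7 members in CPM (log axis) in the 13 control animals with all 3 regions, each line being 1 animal across frontal cortex, amygdala and hypothalamus. Each line ends highest in the hypothalamus, and Maob is the member whose lines mostly dip in the amygdala.

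Other genes of the pathway were read from a list of 30, which held cofactor enzymes, other amine enzymes, transporters and receptors. In the hypothalamus against the frontal cortex 25 of 28 tested passed, beside 82.1% of all genes, 14 higher and 11 lower, with a median log2 difference of 0.10 beside 0.01 over all genes. Pcbd1, which regenerates the biopterin cofactor of Th, was higher by 3.48 on the log2 scale, and Slc29a4, a low-affinity monoamine transporter of the plasma membrane, by 2.06. Against the amygdala 20 of 28 passed, beside 72.6% of all genes, 10 in each direction, among them Pcbd1 (2.21) and Gch1, the entry enzyme of biopterin synthesis (1.61), both higher, and Dbh, which turns dopamine into noradrenaline, lower (log2 -3.61). Dbh was near the floor: its median over all libraries was 0.0694 CPM in the hypothalamus, with 0 reads in 2 libraries, and 0.483 in the amygdala. In the amygdala against the frontal cortex 22 of 28 passed, beside 68.3% of all genes, 11 in each direction, with Slc29a4 (1.95) and Pcbd1 (1.28) higher and Tph2, the serotonin synthesis enzyme of neurons, lower (log2 -1.69). Tph2 was low in both, with medians over all libraries of 0.496 CPM in the amygdala and 1.54 in the frontal cortex. With most genes differing between the regions, these counts are read as nothing particular to the pathway.

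Hdc was among the most variable genes of the hypothalamus. In the 30 min controls it stood at 91.5, 4.16 and 4.66 CPM, in replicates 2, 3 and 5. In the 30 min intruder libraries it was 30.5, 44.7, 57.5, 4.61 and 39 CPM, and in the 60 min controls 42.4, 44.3, 35.2, 43.3 and 8.08. The 60 min intruder libraries had 35, 70.0, 76.0, 32.1 and 37.0 CPM. Values from 4.16 to 91.5 CPM thus occurred in a single group of 3, and the low libraries came from both conditions. At 120 min the controls had 39, 31.3, 75.9, 34.8 and 7.78 CPM and the intruder libraries 21.8, 27.6, 6.01, 48.6 and 20.9. Over the region 6 libraries, 4 control and 2 intruder, lay between 4.16 and 8.08 CPM and the other 22, 9 control and 13 intruder, between 20.9 and 91.5, with none between. After the group means were removed, the SD of log2 Hdc was 1.26, and 12 of 17676 genes tested had a larger one, against a median SD of 0.12 over all genes.

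Slc18a2 varied with it. Its SD of log2 in the hypothalamus was 0.63, with 154 genes above it, and that of Slc6a3 was 0.67, with 133 above it. In the 30 min controls Slc18a2 was 67.3, 16.7 and 15.9 CPM, with replicate 2 far above the other 2, as for Hdc. In the 60 min controls it was 39.3, 42.1, 40.1, 44.6 and 16.6 CPM, where replicate 6 was again the low library. Across the 6 libraries lowest in Hdc it lay between 15.9 and 18.4 CPM, and across the other 22 between 21.9 and 67.3. Slc6a3 overlapped between these sets, at 1.0 to 3.27 and 1.82 to 9.8 CPM, and so did Maob at 28.8 to 46.4 and 35.3 to 57.2. Th lay between 25.6 and 31.9 CPM and between 24.0 and 40.9. Maoa hardly moved, between 59.6 and 67.0 CPM and between 59.7 and 70.3, and its SD of log2 was 0.07. No test was made between sets of libraries defined by Hdc itself.

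The genes most like Hdc across the 28 hypothalamus libraries, by Pearson's r of log2 levels with group means removed, were Prph (0.99), Wif1 (0.99) and Bsx (0.98). Prph and Wif1 were on a list of genes of the tuberomammillary nucleus, the posterior hypothalamic group of neurons that makes the brain's histamine. That list was chosen with earlier results of these data known. Prph stood at 1.04 to 2.48 CPM in the 6 libraries lowest in Hdc and at 5.23 to 21.4 in the other 22, and Wif1 at 0.584 to 1.0 and 2.43 to 11. Slc18a2 is on that list too, though members were left out of its sums, and it separated them as given above. Ada and Lhx6 of that list did not separate them in the same way. Ada overlapped, at 0.484 to 1.17 and 0.632 to 1.71 CPM, and Lhx6 was higher where Hdc was low, at 17.1 to 61.0 against 3.31 to 28.2. Markers of mast cells, the other cells known for Hdc, were near 0, with at most 0.191 CPM of Tpsb2 and 0.109 of Cpa3 in the hypothalamus; Kit, which neurons also express, was at 21.8 to 43.7 CPM. How much of the posterior hypothalamus each dissection held was not measured, and its part in the spread of Hdc was not tested.

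Correlations between members were computed over single libraries of 1 region, each from a separate labelled animal, on log2(CPM + 0.5), with 168 relations in all and permutation p-values adjusted over them. Group means were not removed here, and libraries were permuted across times and conditions. Differences between groups thus enter these r, rho and p-values. Within the 22 libraries of higher Hdc, Hdc and Slc18a2 had r = 0.98 and rho = 0.98 (permutation test, adjusted p = 9.88e-05 and 0.00012). That is the adjusted form of the smallest p that 100000 permutations give, and r was 0.97 without the 2 farthest libraries and 0.97 in the 17 of 60 and 120 min. Hdc and Maob had r = 0.85 and rho = 0.84 in the 22 libraries (permutation test, adjusted p = 9.88e-05 and 0.000198), 0.76 without the 2 farthest and 0.80 at 60 and 120 min. Hdc and Slc6a3 had r = 0.72 and rho = 0.74 (permutation test, adjusted p = 0.000672 and 0.00084), with 0.65 and 0.64 under the same checks. The 6 low libraries spanned too little Hdc for a relation of their own.

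**Figure D3:**
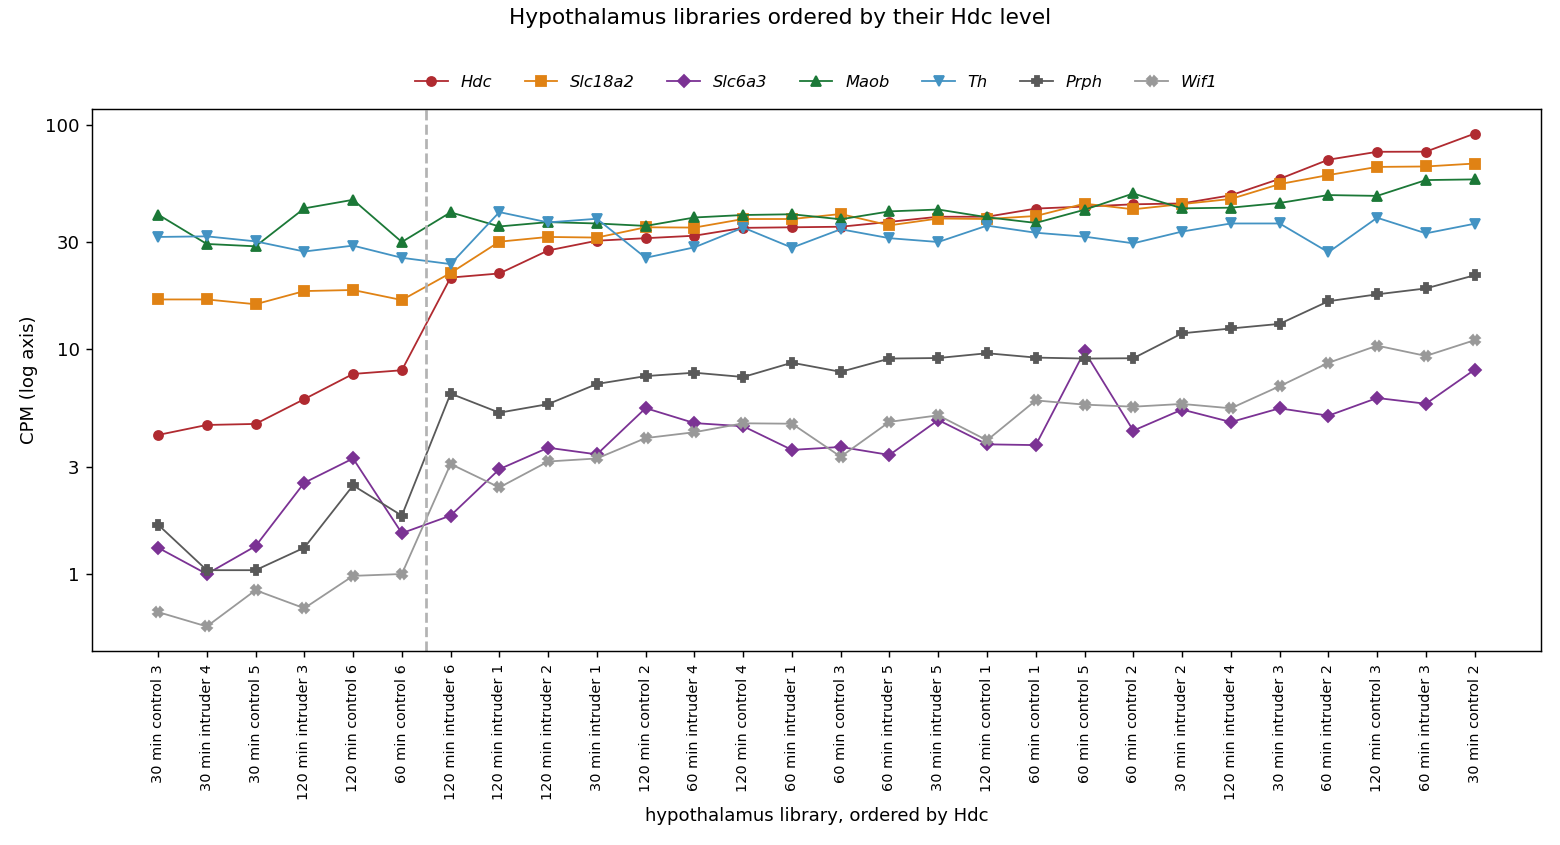
Levels in CPM (log axis) of Hdc, Slc18a2, Slc6a3, Maob, Th, Prph and Wif1 in the 28 hypothalamus libraries, ordered by Hdc, with a dashed line between the 6 libraries at 4.16 to 8.08 CPM and the 22 at 20.9 or above. Prph, Wif1 and Slc18a2 step up across the line, whereas Th lies between 24.0 and 40.9 CPM on both sides.

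The other members had their own closest genes in the hypothalamus. Slc18a2 was most like Fam107b and Wif1 (r = 0.97 each) and Fzd5 (0.96). Slc6a3 was most like Foxd2, Shroom3 and Foxa1 (0.87 each), and its highest library was not that of Hdc: control replicate 5 of 60 min had 9.8 CPM of Slc6a3, against 1.52 to 4.35 in the other 4 of that group, with 43.3 CPM of Hdc. Foxa1 ranged from 0.0182 to 4.13 CPM over the region. Maob was most like Tmem163 (0.87), Lmx1b (0.86) and Ttc6 (0.84), while Maoa had no gene above 0.76.

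Ddc and Th had other closest genes than Hdc. Ddc was most like Cyb5r3, 6330403K07Rik and Cartpt (0.96 each), and Th most like Nrsn2 (0.90), Tmie (0.90) and Amy1 (0.89). Over the 28 hypothalamus libraries Th and Ddc had r = 0.73 and rho = 0.72 (permutation test, adjusted p = 0.000168 and 0.000336), 0.64 without the 2 farthest, 0.79 in the 8 libraries of 30 min and 0.78 in the 20 of 60 and 120 min. Ddc also followed Slc18a2, with r = 0.83 and rho = 0.73 (permutation test, adjusted p = 9.88e-05 and 0.00012), 0.80 without the 2 farthest, 0.94 at 30 min and 0.77 at 60 and 120 min. With Hdc, in the 22 libraries of higher Hdc, Ddc had r = 0.51 and rho = 0.48 (permutation test, adjusted p = 0.0366 and 0.0689), 0.74 without the 2 farthest and 0.41 at 60 and 120 min. Th and Hdc had r = 0.19 and rho = 0.11 there (permutation test, adjusted p = 0.503 and 0.768).

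A list of 6 genes of ependymal cells and tanycytes, the cells lining the third ventricle, summed to 56.3 to 136 CPM in the hypothalamus. Most of the differences in that sum came from Col23a1, at 7.89 to 65.5 CPM, a gene just as high in the amygdala (median 33.5 against 31.4); the other 5 summed to 40.6 to 83.4 CPM. Ddc followed the sum of 6 with r = 0.89 and rho = 0.91 (permutation test, adjusted p = 9.88e-05 and 0.00012), with 0.91 without the 2 farthest, 0.92 at 30 min and 0.89 at 60 and 120 min. Slc18a2 did so with r = 0.88 and rho = 0.78, and Slc6a3 with r = 0.77 and rho = 0.74 (permutation test, same adjusted p for both). Hdc in the 22 libraries had r = 0.63 and rho = 0.56 (permutation test, adjusted p = 0.00668 and 0.0271), and Th over all 28 had r = 0.50 and rho = 0.50 (permutation test, adjusted p = 0.0216 and 0.0271). Without Col23a1, a choice made after seeing the data, r fell to 0.51 for Ddc, 0.30 for Slc18a2, 0.20 for Slc6a3 and 0.06 for Hdc, and was 0.64 for Th. With Col23a1 alone r was 0.83, 0.93, 0.84, 0.75 and 0.34, in the same order of members. So for each of these members but Th, r was larger with Col23a1 than with the other 5 genes. The part of ependymal cells and tanycytes in the levels of these members was not tested.

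In the frontal cortex Th was the member with the largest SD of log2 levels after removal of group means. The 30 min controls had 7.79, 1.55, 1.97, 1.21 and 4.41 CPM, and the 30 min intruder libraries 2.4, 2.31, 0.692, 0.769 and 2.15. At 60 min the controls had 10.7, 3.24, 6.99, 16.9 and 2.51 CPM and the intruder libraries 4.78, 10.4, 13.5, 7.47 and 11.7. At 120 min they ran from 1.82 to 5.66 (median 2.98) in controls and from 3.06 to 6.75 (median 4.53) in intruder libraries. The highest libraries of both conditions were at 60 min, and controls and intruder libraries overlapped at each time. The SD of log2 Th after removal of group means was 0.99, and 25 of 17091 genes had a larger one.

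The 3 genes most like Th in the frontal cortex were Doc2g, Eomes and Sp7, each with r = 0.92. Doc2g and Eomes were on a list of 6 olfactory bulb genes, where Eomes marks mitral and tufted neurons. Eomes was at 0.0201 to 8.81 CPM (median 0.853) in these libraries and Doc2g at 1.39 to 14.9. In the 60 min controls Eomes stood at 4.33, 0.23, 3.76, 8.81 and 0.203 CPM, so the low and high libraries were those of Th. The summed level of the 6 genes and Th had r = 0.82 and rho = 0.77 (permutation test, adjusted p = 9.88e-05 and 0.00012), 0.76 without the 2 farthest, 0.84 in the 10 libraries of 30 min and 0.92 in the 22 of 60 and 120 min. Calb2, the most abundant gene of that list, is not particular to the bulb; without it, a choice made after seeing the data, r was 0.77, with 0.87 at 30 min and 0.93 at 60 and 120 min. Slc6a3, at 0 to 0.986 CPM, moved with Th, with r = 0.75 and rho = 0.72 (permutation test, adjusted p = 9.88e-05 and 0.00012), 0.70 without the 2 farthest, 0.72 at 30 min and 0.81 at 60 and 120 min. Pax6, a gene of olfactory bulb dopamine neurons among other cells, was among the 3 genes most like Slc6a3 (r = 0.85). The olfactory bulb holds dopamine neurons with Th; how much of it the frontal cortex dissections held was not measured, and its part in these levels was not tested.

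The highest Slc18a2 of the frontal cortex came from 1 library. The 120 min intruder libraries had 2.9, 0.131, 0.394, 0.233, 0.253 and 0.435 CPM, and the 120 min controls 0.439, 0.107, 0.444, 0.11, 0.291 and 0.0806. Intruder replicate 1, the highest of them, was the library with 15.4 CPM of Oxt, and it had the region's highest Hdc (1.83), Ddc (9.0) and Maob (37.1) too. Its Th was not the highest of the region, which occurred at 60 min. Among the genes most like Slc18a2 in the region were Zic1 (0.94) and Gpx3 (0.89). Hdc was most like Cfap43 (0.80), Rsph4a (0.73) and Dnah12 (0.72), genes of motile cilia. These relations leaned on intruder replicate 1, which held 15.3 CPM of the ependymal cilia gene Foxj1 against at most 9.02 in the other libraries: without it r was 0.54, 0.39 and 0.39 for Hdc, and 0.86 and 0.77 for Slc18a2 with Zic1 and Gpx3.

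In the amygdala Th and Slc18a2 moved together. The 30 min controls had 8.77, 2.3, 5.7, 3.45 and 5.88 CPM of Th, and the 60 min intruder libraries had 4.92, 1.52, 1.15, 3.97 and 5.02. Over the 30 libraries Th ran from 1.15 to 8.77 CPM and Slc18a2 from 0.586 to 4.62. Their correlation was r = 0.90 and rho = 0.85 (permutation test, adjusted p = 9.88e-05 and 0.00012), with 0.87 without the 2 farthest, 0.92 in the 10 libraries of 30 min and 0.90 in the 20 of 60 and 120 min. Most like Th were Ttc39a, Ache and Chat (0.94 each), and most like Slc18a2 were Kcnj5 (0.94), Ache (0.91) and Dgkk (0.91). Ache and Chat are the acetylcholinesterase and choline acetyltransferase genes, which are high in cholinergic neurons of the nearby basal forebrain and striatum. In the 60 min intruder libraries Chat was at 14.5, 0.13, 0.308, 6.15 and 16 CPM, lowest in replicates 2 and 3, as Th was.

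The summed striatal genes also followed Th in the amygdala, with r = 0.72 and rho = 0.73 (permutation test, adjusted p = 0.000168 and 0.000198), 0.67 without the 2 farthest, 0.83 at 30 min and 0.69 at 60 and 120 min. Other summed lists moved with Th too. The list of tuberomammillary genes, there almost all Lhx6 (26.7 to 59.5 CPM, the other 3 genes at most 1.26 each), had r = 0.79 and rho = 0.76 with Th and r = 0.80 and rho = 0.66 with Slc18a2 (permutation test, adjusted p = 9.88e-05 for each r, 0.00012 and 0.00132 for rho). The ependymal and tanycyte list had r = -0.67 and rho = -0.68 with Th (permutation test, adjusted p = 0.000517 and 0.000458) and r = -0.69 and rho = -0.69 with Slc18a2 (permutation test, adjusted p = 9.88e-05 and 0.000198), and r of -0.23 and -0.24 without Col23a1. A list of 10 genes of midbrain dopamine neurons summed to 65.4 to 94.4 CPM in the amygdala, nearly all of it from Nr4a2, Aldh1a1 and Ntsr1, which other cells also express. Of its defining genes Pitx3 reached at most 0.0651 CPM there, En1 0.144, Lmx1b 0.183, Foxa1 0.0422 and Foxa2 0.022, while Lmx1a reached 0.67 (median 0.0414) and En2 5.05 (median 0.442). The part of midbrain tissue, or of tissue next to the amygdala, in the levels of Th and Slc18a2 was not tested. The SD of log2 after removal of group means was 0.63 for Th and 0.56 for Slc18a2, against 0.08 for Maoa.

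**Figure D4:**
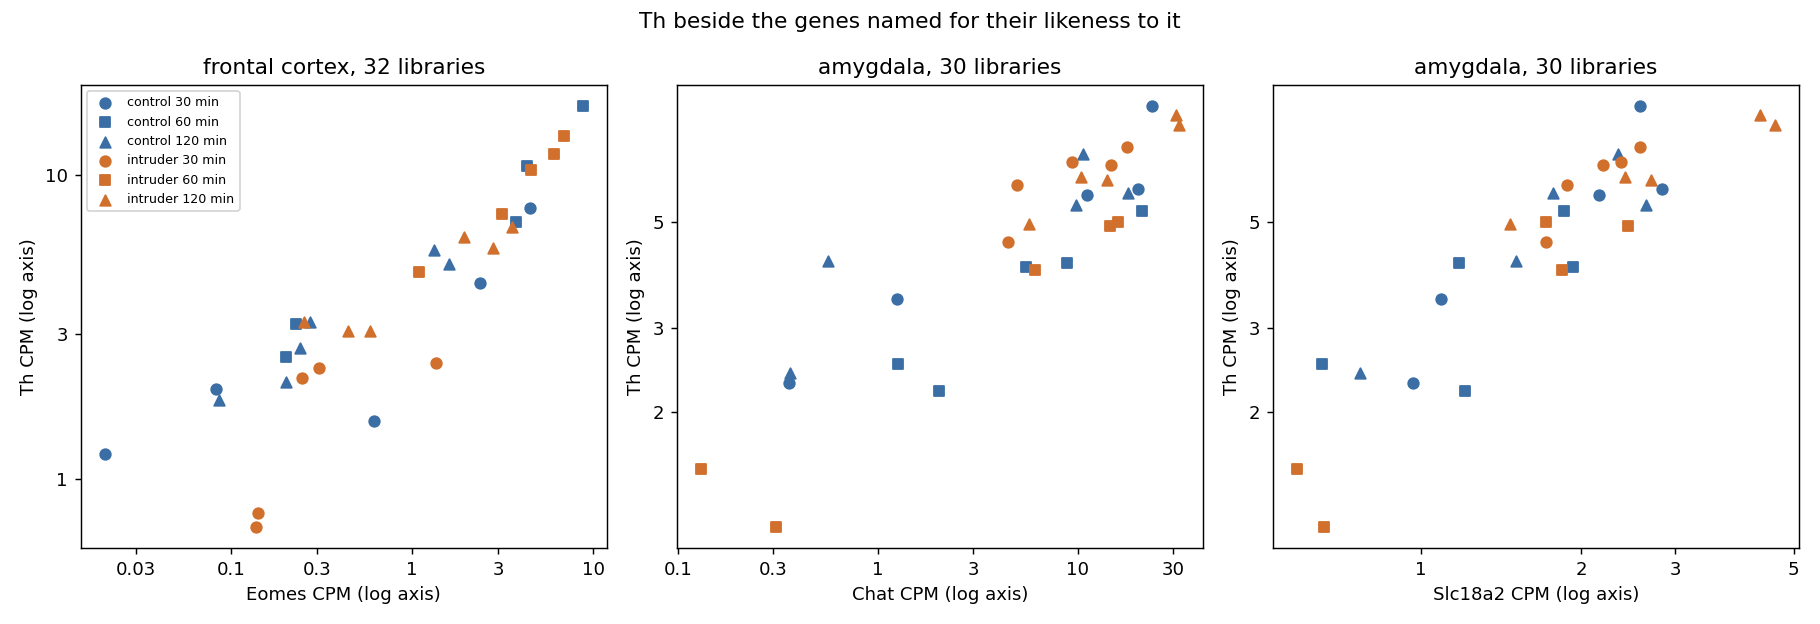
Th in CPM against Eomes in the frontal cortex, and against Chat and Slc18a2 in the amygdala, 1 point a library on log axes, colored by condition and shaped by time. Th and the other gene rise together in each panel, and control and intruder libraries are spread along the whole range.

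No member passed the test for a difference between intruder and control libraries. In each of the 9 comparisons of intruder with control libraries (3 regions at 30, 60 and 120 min), edgeR's quasi-likelihood test with Benjamini-Hochberg adjustment called 0 of 7 members. It called 0.0% of all genes in the 30 and 60 min amygdala, all frontal cortex and 30 and 60 min hypothalamus comparisons, 0.538% in the 120 min amygdala and 0.192% in the 120 min hypothalamus. DESeq2 and limma voom called 0 of 7 in each as well. At an unadjusted p below 0.05, edgeR had 3 of the 63 values. Averaged over times, 0 of 7 were called in each region, beside 0.0% of all genes. An intruder effect that differs between times was called for 0 of 7 in each region too, beside 0.0% of all genes in the amygdala and frontal cortex and 0.0113% in the hypothalamus.

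The 3 values with the smallest unadjusted p were those of Slc18a2 and Maob. In the 120 min amygdala Slc18a2 was at 2.34, 0.769, 1.51, 2.64 and 1.77 CPM in controls and at 1.47, 2.7, 4.62, 2.42 and 4.33 in intruder libraries. The highest 3 were intruder libraries and the groups overlapped, with a log2 difference of 0.78 (SE 0.378, edgeR adjusted p = 0.327). Chat was at 32.2 and 31.0 CPM in intruder replicates 3 and 6, the libraries of highest Slc18a2, and at 17.8 at most in the controls. In the 120 min frontal cortex Slc18a2 differed by 1.64 on the log2 scale (SE 0.621, edgeR adjusted p = 0.827). Without intruder replicate 1 that was 0.26 (edgeR adjusted p = 1.0).

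Maob in the 60 min amygdala stood at 20.6, 27.8, 28.5, 25.2 and 28.3 CPM in controls and at 22.5, 21.0, 22.9, 23.9 and 25.1 in intruder libraries. All but 1 of the controls lay above all intruder libraries, and control replicate 1 lay below them. The log2 difference was -0.17 (SE 0.068, edgeR adjusted p = 0.65). Control replicate 1 was also the 1 control of the 5 with the sequencing index that all 5 intruder libraries carried, and with the index as a block, where the comparison within this time rests on that 1 control, the difference turned to 0.16 (edgeR adjusted p = 1.0). The 30 min amygdala, with 23.2 to 23.9 CPM in 4 controls and 22 in the other, showed no such spread, and the log2 difference there was -0.01.

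Precision differed widely between members. For Maoa the log2 differences in the amygdala were -0.00, -0.02 and 0.02 at 30, 60 and 120 min with an SE of 0.049 each, and in the hypothalamus 0.07, 0.06 and -0.03 with SEs of 0.042 to 0.049. For Hdc in the hypothalamus they were 0.08, 0.53 and -0.61 with SEs of 0.784, 0.676 and 0.684 (edgeR adjusted p = 1.0, 1.0 and 0.751). The value at 30 min rested on single libraries: it was 3.0 without control replicate 2 and -0.44 without control replicate 3 or 5 (edgeR adjusted p = 0.934, 1.0 and 1.0), 1.17 with limma voom and 1.92 with the replicate block. At 120 min it ran from -1.0, without intruder replicate 4, to -0.18, without control replicate 3. A change in Hdc of the size of those SEs was not detectable with these libraries. Th in the 30 min frontal cortex was lower by 1.01 on the log2 scale in intruder libraries (log2 -1.01, SE 0.519, edgeR adjusted p = 0.771), and by 0.45 without control replicate 1 (log2 -0.45, edgeR adjusted p = 0.827). In the hypothalamus Th differed by 0.05, -0.06 and 0.01 with SEs of 0.139, 0.120 and 0.120.

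**Figure D5:**
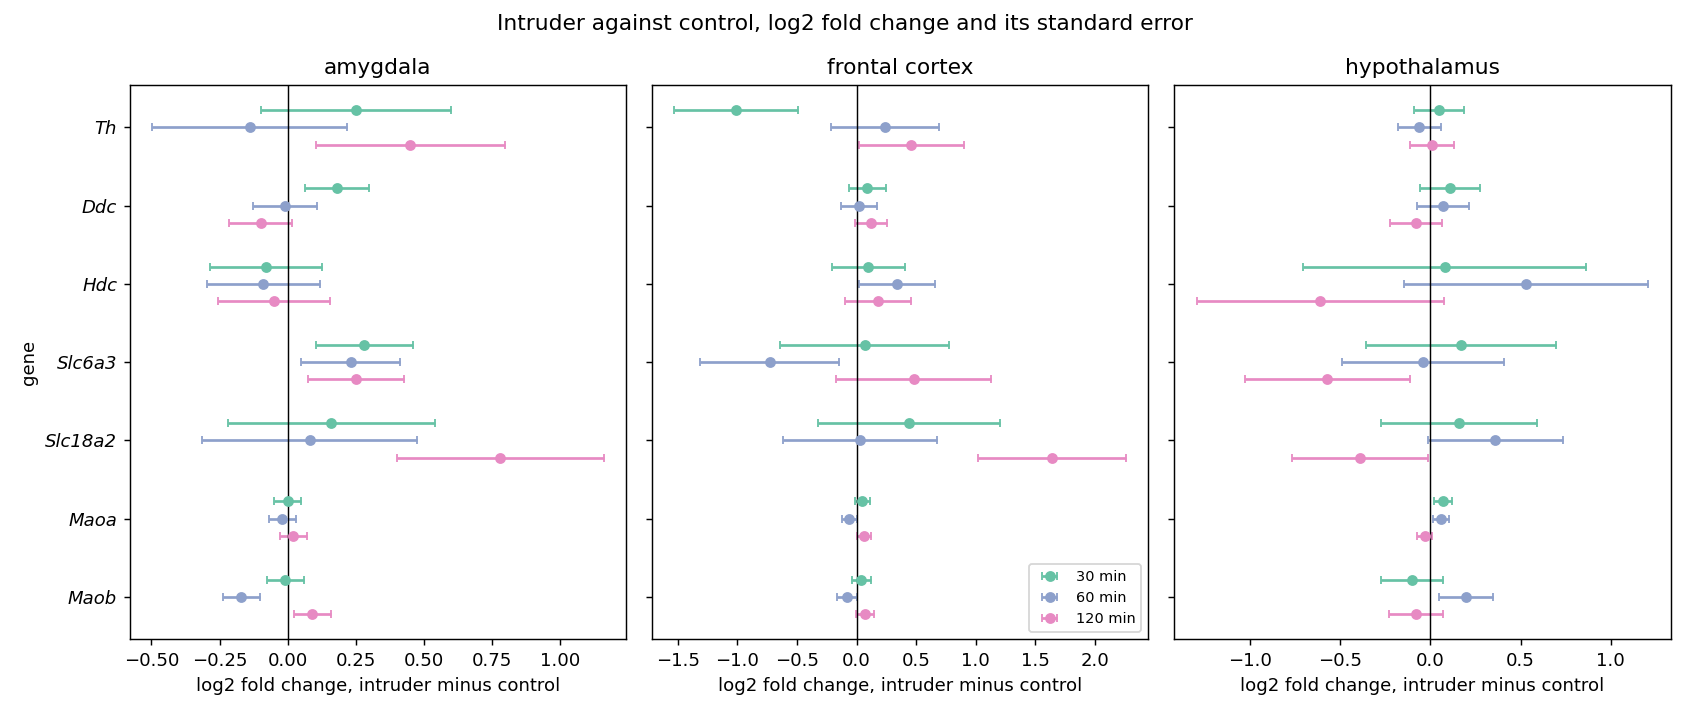
Log2 fold change of intruder over control libraries with its standard error for each member at 30, 60 and 120 min, in a panel a region with its own range. Maoa lies near 0 with short bars in each region, and the widest bars belong to Hdc in the hypothalamus and to Slc6a3 and Slc18a2 in the frontal cortex.

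Libraries of intruder and control groups overlapped for each member in each comparison, 63 in all. Over all genes, the groups were apart for 0.776%, 0.376% and 3.13% in the amygdala at 30, 60 and 120 min, for 1.03%, 0.369% and 0.246% in the frontal cortex and for 3.22%, 0.458% and 1.3% in the hypothalamus. Of the other pathway genes edgeR called 0 in the same comparisons, among 24 to 26 tested in each, with 0 to 3 at an unadjusted p below 0.05.

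Time after the exposure was tested within controls and within intruder libraries. In frontal cortex controls 4 of 7 members differed between times, Th, Ddc, Slc6a3 and Maob, where 33.4% of all genes did. These controls shared no sequencing index between times, so that within them time and index cannot be told apart. Ddc was at 4.3, 4.28, 4.51, 3.49 and 3.48 CPM at 30 min and at 5.82, 5.68, 5.96, 5.05 and 5.05 at 60 min, with no overlap (edgeR adjusted p over the 3 times = 0.0482). Maob was at 25.2, 25.0, 24.9, 24.4 and 25.1 CPM at 30 min and at 29.0, 33.9, 33.0, 30.3 and 26.1 at 60 min, again with none shared (edgeR adjusted p = 0.0255). Th (edgeR adjusted p = 0.0368) and Slc6a3 (edgeR adjusted p = 0.0471) had their highest mean at 60 min, and their groups overlapped. Slc6a3 at 60 min was 0.714, 0, 0.596, 0.986 and 0.101 CPM, so that its mean rested on 3 libraries. In the contrast of 120 with 30 min in these controls 0 of 7 members were called, beside 4.42% of all genes, with 1 at an unadjusted edgeR p below 0.05 and 0 called by DESeq2.

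These calls were close to the threshold. The Th call was lost without 30 min control replicate 2, 3 or 4, 60 min control replicate 1 or 5, or 120 min control replicate 2 or 6. That of Ddc held only without 30 min control replicate 3, 60 min control replicate 6 or 120 min control replicate 1, 2 or 6. That of Slc6a3 held only without 30 min control replicate 1, 60 min control replicate 2 or 6, or 120 min control replicate 5. The Maob call was lost without 60 min control replicate 2 or 3 (edgeR adjusted p = 0.0714 and 0.0664). In contrasts with the 30 min groups, time and the tag in the headers cannot be told apart; a fit of 60 and 120 min alone bears on the other times only. In it 1 of 7 members was called in frontal cortex controls, beside 13.4% of all genes: Th was lower at 120 than at 60 min (log2 -1.25, SE 0.41, edgeR adjusted p = 0.0463). In frontal cortex intruder libraries 0 of 7 were, beside 20.6% of all genes. Neither of these sets shared a sequencing index between 60 and 120 min, so that time and index cannot be told apart in this fit either. The count was 0 of 7 too in amygdala controls and intruder libraries, beside 0.0% and 0.0234% of all genes, and in hypothalamus controls and intruder libraries, beside 0.0465% and 0.18%. At an unadjusted edgeR p below 0.05 those 5 sets held 1, 1, 2, 0 and 1 members, and DESeq2 was not run for this fit.

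In the frontal cortex intruder libraries 2 of 7 members differed between times, Th and Ddc, beside 46.1% of all genes. As in the controls, no sequencing index was shared between times, so that time and index cannot be told apart. Th had an edgeR adjusted p of 0.000688, and at 120 min it was higher than at 30 min by 1.49 on the log2 scale (SE 0.494, edgeR adjusted p = 0.0355), a contrast in which 17.7% of all genes were called. That contrast lost its call without 30 min intruder replicate 3 or 4 or 120 min intruder replicate 1, 3 or 6 (edgeR adjusted p = 0.0586 to 0.0933). Over both conditions the Th mean went from 2.53 CPM at 30 min to 8.82 at 60 min and 4.07 at 120 min. The summed olfactory bulb genes had group medians of 36.3 and 36.9 CPM at 30 min (control and intruder), 61.8 and 81.6 at 60 min and 30.0 and 37.7 at 120 min, highest at the time when Th was highest. Without Calb2 the control medians of the 3 times were 26.9, 35.1 and 20.1 CPM, and the intruder medians 26, 47.4 and 20.3, again highest at 60 min. The 6 astrocyte genes summed lowest at that time, with 4520 to 5130 CPM at 30 min, 3360 to 4270 at 60 min and 3910 to 4560 at 120 min in controls, and 4550 to 5100, 3480 to 4110 and 3800 to 4160 in intruder libraries. Over the 32 libraries that sum had r = -0.67 and rho = -0.62 with Th (permutation test, adjusted p = 0.00024 and 0.00116), 0.14 at 30 min and -0.60 at 60 and 120 min. With Ddc it had r = -0.58 and rho = -0.61 (permutation test, adjusted p = 0.00228 and 0.00133), and -0.18 both at 30 min and at 60 and 120 min. The value over all libraries thus holds differences between these times. With Slc6a3 it had r = -0.42 and rho = -0.27 (permutation test, adjusted p = 0.0406 and 0.266), -0.19 without the 2 farthest, 0.24 at 30 min and -0.52 at 60 and 120 min. Slc6a3 and the summed olfactory bulb genes had r = 0.82 and rho = 0.83 (permutation test, adjusted p = 9.88e-05 and 0.00012), and r = 0.77 without Calb2. With Maob the astrocyte sum had r = -0.46 and rho = -0.52 (permutation test, adjusted p = 0.0216 and 0.0124), 0.19 at 30 min and -0.12 at 60 and 120 min. The part of these cells in the calls between times was not tested. The Ddc call in intruder libraries (edgeR adjusted p = 0.0498) held only without 30 min intruder replicate 2, 60 min intruder replicate 5 or 120 min intruder replicate 1, 3, 4, 5 or 6.

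In the amygdala intruder libraries Ddc alone differed between times, 1 of 7 beside 12.9% of all genes. It was at 15.5, 11.9, 14.1, 12.1 and 11.7 CPM at 30 min, at 9.89, 7.64, 9.02, 10.6 and 10.9 at 60 min and at 8.53, 9.89, 11.4, 10.6 and 10.8 at 120 min. All 30 min libraries lay above those of the later times (edgeR adjusted p = 0.0218), and the 120 min level was lower than that of 30 min by 0.35 on the log2 scale (log2 -0.35, SE 0.117, edgeR adjusted p = 0.0414, beside 15.0% of all genes). The first of these calls was lost without 30 min intruder replicate 1 or 3, and the contrast of 120 with 30 min without any of those or 120 min intruder replicate 1, 2, 4 or 6. The summed level of 6 astrocyte genes, of which Slc1a2 made up most, did not overlap between 30 min and the later times either: it was 3260 to 3510 CPM at 30 min, 4050 to 4290 at 60 min and 3900 to 4750 at 120 min. Over the 30 amygdala libraries Ddc moved against it, with r = -0.65 and rho = -0.68 (permutation test, adjusted p = 0.000517 and 0.000265), -0.62 without the 2 farthest, -0.38 at 30 min and -0.40 at 60 and 120 min, and its part in the call was not tested. The intruder libraries of this region shared no sequencing index between times, so that within them time and index cannot be told apart. Th did not pass in these libraries with edgeR (adjusted p = 0.0915), and passed with DESeq2 (adjusted p = 0.0412) and limma voom (adjusted p = 0.0337). In amygdala controls 0 of 7 differed between times, beside 0.232% of all genes. In the hypothalamus 0 of 7 did, beside 0.181% of all genes in controls and 1.49% in intruder libraries. DESeq2 called 0 in these 3 sets too. Unadjusted p-values below 0.05 numbered 1, 0 and 0 of 7 in edgeR, in the order given.

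Of the pathway genes, 9 of 26 tested differed between times in frontal cortex controls, a share close to the 33.4% of all genes, 7 of them with a higher level at 120 than at 30 min. Among them the dopamine receptor gene Drd5 differed by 0.86 on the log2 scale between those times and Pts, of biopterin synthesis, by 0.09. In frontal cortex intruder libraries 9 of 26 passed, beside 46.1% of all genes, all 9 higher, with the aldose reductase gene Akr1b3 at 0.18 and Spr, the last enzyme of biopterin synthesis, at 0.24. In the amygdala intruder libraries 2 of 25 passed, beside 12.9% of all genes, Pcbd1 lower (log2 -0.12) and the histamine receptor gene Hrh2 higher (0.52), and in the hypothalamus 0 passed in either set.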

How the data were processed

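Messenger RNA of 3 brain regions was sequenced as 90 single-end libraries from a stranded kit. The authors deposited 1 table of raw read counts per Ensembl gene, and per the submitters' processing notes CASAVA 1.8.2, TopHat2 2.0.8, HTSeq 0.6.1, edgeR 3.2.4 and R 3.0.0 were used with build NCBIM37; whether counting used strand is not given in the sources used here. The 5 closing rows of the deposited counts, which name no gene, were left out (no feature 8.63 to 14.46% of all rows' reads, ambiguous 0.63 to 0.76%, not unique 9.79 to 11.5%), and 32919 of 37991 genes had a symbol in Gencode M21. Reads carry no molecular identifiers, so a floor of 3 counts covers counting error only.

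Groups came from the labels. The quasi-likelihood test of edgeR 4.0.16 (limma 3.58.1, R 4.3.3; TMM scaling, filterByExpr) was fitted to all libraries of a region, with 1 coefficient a group, on 17277 genes in the amygdala, 17091 in the frontal cortex and 17676 in the hypothalamus. Regions were compared in control animals with the animal as a block, because equal numbers of a time and condition name 1 animal in the labels. Benjamini-Hochberg adjustment ran over all genes tested, with a threshold of 0.05. Alternatives were DESeq2 1.42.0, limma voom, other scalings, no filter, replicate and index blocks, the 2 groups alone and each library left out; a fit of 60 and 120 min alone, frontal cortex likeness without 1 library and lists without Col23a1 or Calb2 were added after seeing the data. Replicates are labelled as separate animals. Correlations used scipy 1.17.1 and numpy 2.4.6, and figures matplotlib 3.10.9.

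The 7 members are always named; of 30 other pathway genes, those with an adjusted p below 0.05 are named, up to 3 a comparison, and the 3 genes most like a member by Pearson's r. Some genes that this rule names are not reported here. Members, lists and tests were chosen with earlier results of these data known. On simulated counts for the 120 min hypothalamus comparison, with 16852 genes, the test recovered 193 of 200 genes changed 2-fold (96.5%), with 6 false calls. Every simulated gene had the same spread, so this share does not describe members that vary more. In the hypothalamus the SD of log2 was 1.26 for Hdc, 0.67 for Slc6a3 and 0.63 for Slc18a2. No libraries of a group agreed within sampling noise among 183 pairs (lowest chi-square per gene 4.375).

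Equal replicate numbers of intruder and control groups did not pair the samples: of 41 pairs, correlations of deviations ran from -0.688 to 0.694. Levels of the members were compared with each other only per kb of exons, whose lengths come from Gencode M21. The weight of single genes within a summed list is in CPM, without correction for length.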

Additional observations from a re-analysis of the deposited data

Results flagged for a closer look

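Of 119 groups of 4 to 6 libraries tested for a member that stood apart at the top or bottom of its group, 9 values from 5 libraries did, where chance gives about 1 in 20 groups. Members can move together within a library, so these groups are not independent, and the 9 values are not read as more than chance gives. Intruder replicate 1 of the 120 min frontal cortex was the highest of its group for Ddc at 9.0 CPM (others 4.31 to 5.9), for Hdc at 1.83 CPM (others 0.438 to 0.663) and for Slc18a2 at 2.9 CPM (others 0.131 to 0.435). Control replicate 6 of the 60 min hypothalamus was the lowest of its group for Ddc at 37.2 CPM (others 46.9 to 50.3), for Hdc at 8.08 CPM (others 35.2 to 44.3) and for Slc18a2 at 16.6 CPM (others 39.3 to 44.6). Hdc stood at 1.76 CPM in intruder replicate 1 of the 30 min amygdala (others 1.13 to 1.23) and at 2.01 CPM in intruder replicate 4 of the 120 min amygdala (others 0.845 to 1.06). Ddc was the lowest of its group at 4.88 CPM in intruder replicate 5 of the 60 min frontal cortex (others 5.66 to 5.96).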

How the results depend on the processing

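Of 24 comparisons, 20 kept their count of members called within 1.5 times under all alternatives run, and the other 4 were comparisons between times. In frontal cortex controls, with 4 members called, limma voom called 1, no filter on low counts 2, 60 and 120 min alone 1, and leaving out single libraries 1 to 4. In frontal cortex intruder libraries, with 2 called, limma voom and no filter called 1 each, 60 and 120 min alone 0, and leaving out single libraries 1 to 2. In amygdala intruder libraries, with 1 called, DESeq2 and limma voom called 2 each, 60 and 120 min alone 0, the index block 0 (these libraries share no index between times, so that fit rests on the controls), and leaving out single libraries 0 to 1. In amygdala controls, with 0 called, leaving out single libraries gave 0 to 1: without 60 min control replicate 1, Maob was called (edgeR adjusted p = 0.0206).

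In frontal cortex controls the difference of 120 from 30 min turned its sign for called genes that changed mainly at 60 min. Th, at 0.02, ran from -0.2 to 0.58 when single libraries were left out, with -0.17 and -0.14 without 120 min control replicates 1 and 5, and -0.16, -0.12 and -0.2 without 30 min control replicates 2, 3 and 4. Slc6a3, at -0.22, went to 0.1 with limma voom (adjusted p = 0.739) and ran from -0.52 to 0.32 when single libraries were left out, the latter without 30 min control replicate 1. Of 4625 values of single members under the alternatives, 619 belonged to results that were called to begin with. Of these 66 lost the call, 4 of them with another sign, and 3 were still called with another sign. Of the 4006 values not called to begin with, 8 gained a call and 352 had another sign.

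With the replicate number as a block, 0 members were called in all 15 comparisons with an intruder term, the same count as without it, and samples of equal number were not treated as pairs: 0 of 9 sets had every correlation above 0.1. Without the animal block, the regions gave 7 members called for hypothalamus against frontal cortex, 6 for amygdala against frontal cortex and 7 for hypothalamus against amygdala. The index block could not be fitted for all comparisons, since in the 120 min frontal cortex the index and the condition cannot be told apart. Depth limited Slc6a3 in the frontal cortex most, with 0 to 48 reads a library, whereas Maoa had 1161 or more.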
